A study of Mus musculus with 2 samples.

Results

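The miR-34 family was followed through a comparison of miRNA levels in mouse basal cell carcinoma (BCC) cells after interference with D3. The members are all array probes designed for mouse miR-34a, miR-34b and miR-34c, found by name and kept apart per probe. This gave 3 miRNAs of 419 mouse miRNAs in the authors' deposited table, with 4 probes of 422: 1 for mmu-miR-34a, 1 for mmu-miR-34b-5p and 2 for mmu-miR-34c. All 4 had a fold change there, so none was lost to a filter. The names of the miR-34a and miR-34c probes give no arm, and the 3p arms of the hairpins were not analysed here.

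Cells of the line G2N2C, derived from a mouse BCC, were transfected with Stealth-D3, an oligonucleotide directed against D3, or with Stealth-ctr, its control. D3 is the type 3 deiodinase, which inactivates thyroid hormone. Both groups grew in low calcium with 8% chelated serum and keratinocyte growth factor and were collected 48 h after transfection. RNA of 3 experiments was pooled per condition, and the same pair of pools was hybridised to 2 arrays with the dyes exchanged. The data therefore hold 1 replicate per condition. The SD given with each mean is technical, over both arrays, and no p-value between conditions was computed. The number of arrays limits the precision. Cells were measured in bulk, so fewer cells of a type and less RNA per cell cannot be told apart, and the extent of the interference with Dio3 was not analysed here.

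The miR-34 miRNAs are direct transcriptional targets of p53. They repress cyclin-dependent kinases, Met and Bcl2, and are known for restraining proliferation. miR-34a has a gene of its own, while miR-34b and miR-34c are cut from a single shared primary transcript. In mouse keratinocytes p63 is known to repress miR-34a and miR-34c. The miR-449 miRNAs, which carry the same seed, act with miR-34b and miR-34c in multiciliated cells.

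The mature sequences are shown because the seed, which directs target choice, is common to both families, while the rest of the molecule decides how closely related the probe targets are. The sequences are from RefSeq, build GRCm38.p6, written 5′ to 3′. Capitals mark bases 2 to 8, the seed. The entry for Mir34c is the stretch of its hairpin that lines up with miR-34b-5p.
miR-34a-5p: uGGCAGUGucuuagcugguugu
miR-34b-5p: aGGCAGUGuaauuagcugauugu
Mir34c stretch: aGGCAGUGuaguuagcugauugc
miR-449a-5p: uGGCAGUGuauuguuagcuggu
miR-449c-5p: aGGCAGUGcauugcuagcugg
The hairpin of Mir34c, from which that stretch was taken, is shown whole with the same bases in capitals.
Mir34c hairpin: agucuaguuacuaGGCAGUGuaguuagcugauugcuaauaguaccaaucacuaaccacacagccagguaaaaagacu
All 5 share the seed GGCAGUG. Of 1679 mature mouse miRNA names in the RefSeq table, 4 (0.238%) have it at bases 2 to 8: the miR-34a, miR-34b, miR-449a and miR-449c sequences printed here. These names include no mature 5p arm of Mir34c, so the count leaves it out although its stretch has the seed. miR-34b-5p and the Mir34c stretch differ at 2 bases, A11G and U23C, counted from 1 at the 5′ end with the base of miR-34b-5p first. miR-34a-5p is further from both, with 4 edits (base changes, insertions or deletions) to miR-34b-5p and 5 to the Mir34c stretch. The miR-449 sequences are 6 and 7 edits from miR-34a-5p. miR-34b-5p and the Mir34c stretch are thus near-identical. Cross-hybridisation among the 3 probes named for miR-34b-5p and miR-34c was not tested, and the sequences of the array's own probes were not used here.

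miR-34a-5p lies at chr4:150068473-150068494 on the plus strand. Its gene overlaps no other gene in the RefSeq gene table and lies between the lncRNA gene Gm13067 and Gpr157. miR-34b-5p lies at chr9:51103610-51103632 and the Mir34c stretch at chr9:51103076-51103098, both on the minus strand. The Mir34b and Mir34c hairpins are 451 bases apart and both lie within the gene spans of Hoatz and Btg4. Exons and introns were not used here.

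The value of a probe is a processed log2 dye ratio per array. The first array carried the D3-interfered pool in Cy3 and the control pool in Cy5, and the second the reverse. The sign of the first array was turned before averaging, so that positive values lie on the side of miR-21, an oncogenic miRNA that had 3.08 and 4.12 on the turned arrays. Which dye forms the numerator is not stated in the labels or files. If it is Cy5, values opposite miR-21 mean a lower level in the D3-interfered pool; if it is Cy3, they mean a higher level there. No direction between the conditions is therefore given, and log2 differences and folds are sizes, placed on the side of miR-21 or opposite it.

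All 4 miR-34 probes lay opposite miR-21 on both arrays, at about 2-fold. Their means ran from -1.13 to -0.85 on the log2 scale, which is 1.80- to 2.19-fold between the pools. The rule of size asked that both turned arrays share a sign and that their mean reach 1.5-fold, or 0.585 in log2 units. All 4 passed on the side opposite miR-21. Of all 376 mouse miRNA probes with a fold change, the members included, 13 passed on that side, or 3.46%, and 34 passed on the side of miR-21, or 9.04%. The median over the 4 probes was -1.08, against 0.079 over the 376. Although 4 probes were counted, they stand for 3 miRNAs with genes on 2 chromosomes, in 1 pair of pools, and are not replicates of the comparison.

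miR-34a, the best studied p53 target of the family, had unturned ratios of 1.24 on the first array and -0.46 on its dye-swapped partner. The sign changed with the exchange of dyes, and the second array showed the smaller difference, 1.37-fold against 2.37-fold on the first. Its mean was -0.85 ± 0.56 (technical SD, 2 arrays), or 1.80-fold, and the second array alone would not reach 1.5-fold. This probe was the brightest of the 4, with an average log2 intensity of 9.27, which is at percentile 85.6 of the mouse probes.

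miR-34b-5p, which shares its transcript with miR-34c, had 1.25 and -0.87 before turning. Both arrays exceeded 1.5-fold, with 2.39-fold on the first and 1.83-fold on the second. The mean was -1.06 ± 0.27 (technical SD, 2 arrays), or 2.09-fold.

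miR-34c was measured by both of its probes, and these gave almost the same ratio. The probe numbered 11074 on the array had 1.06 and -1.13 before turning, with a mean of -1.09 ± 0.049 (technical SD, 2 arrays), or 2.13-fold. The probe numbered 32772 had 1.13 and -1.14, with a mean of -1.13 ± 0.0045 (technical SD, 2 arrays), or 2.19-fold. Between the probes the ratios differed by 0.073 on the first array and by 0.010 on the second. Their means differed by 0.041. Both remaining miRNAs with more than 1 mouse probe showed wider gaps between means: miR-298 had -0.32 and 0.64, and miR-744 had -0.32 and 0.15. The miR-298 probe with -0.32 had -2.75 and 2.12 on the turned arrays, so its mean averages opposite signs, with a technical SD of 3.45. Over all 376 mouse probes the median technical SD was 0.32, so as deposited both miR-34c probes repeated more closely across the arrays than most.

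**Figure D1:**
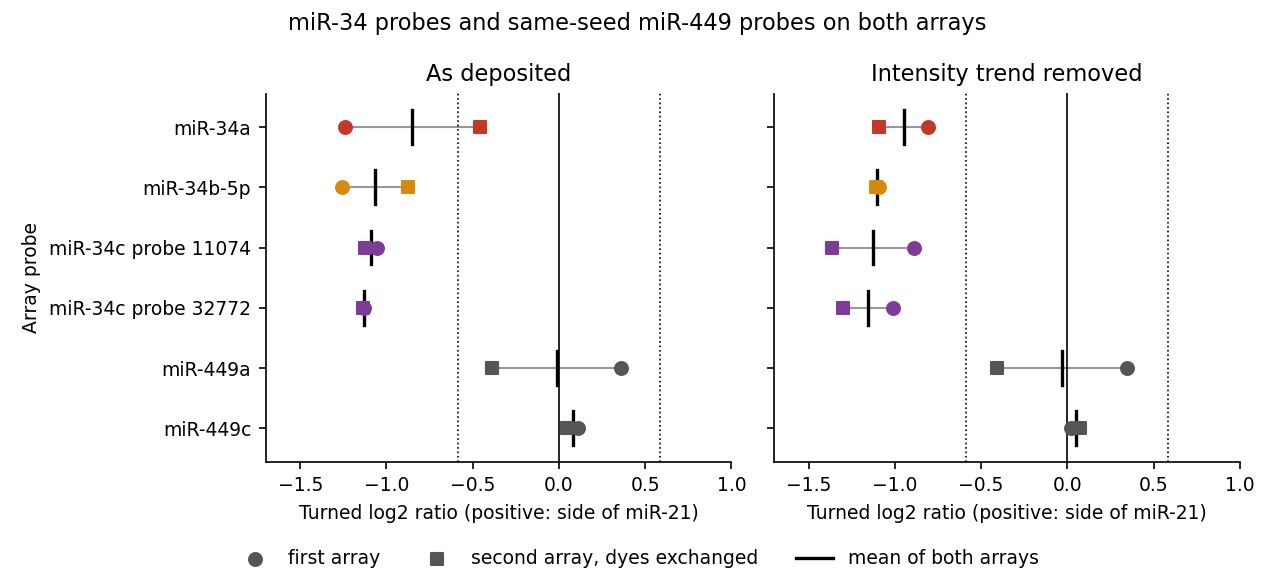
Turned log2 ratios of the 4 miR-34 probes and of both miR-449 probes, as deposited (left) and with the intensity trend removed (right). Circles are the first array, squares the second, with exchanged dyes, black bars the mean, and dotted lines 1.5-fold (0.585). Every miR-34 value lies below 0, with the second array of miR-34a, at -0.46, nearest to 0 as deposited, while miR-449a lies on both sides of 0.

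Differences between the members were of the size of the technical spread as deposited. miR-34a minus miR-34b-5p was 0.011 and 0.42 on the arrays, a mean of 0.21 ± 0.29 (technical SD, 2 arrays). Against the miR-34c probes the difference of miR-34a changed sign between the arrays, with -0.19 and 0.67 for probe 11074 and -0.11 and 0.68 for probe 32772. miR-34c probe 11074 minus miR-34b-5p was 0.20 and -0.25. The order of the 4 probes by size differed between the arrays: miR-34b-5p was farthest from 0 on the first and miR-34c on the second, and miR-34a was nearer to 0 than miR-34b-5p on both.

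The authors' deposited table placed the family on the same side, with a larger size for miR-34a and smaller sizes for the probes of miR-34b-5p and miR-34c. The authors' deposited table gives miR-34a a log2 fold change of -0.96, or 1.94-fold. In the authors' deposited table miR-34c has -0.91 (1.88-fold) for probe 11074 and -0.74 (1.67-fold) for probe 32772, and miR-34b-5p has -0.89 (1.86-fold). By 1.5-fold in the authors' deposited table, 4 of 4 members were on the side opposite miR-21, against 23 of 376 mouse probes (6.12%). Counted from the farthest, the members were at ranks 11, 14, 15 and 19 of 376 in the authors' deposited table and at ranks 5, 8, 9 and 13 by the mean of the arrays. The order within the family differed: miR-34a was farthest from 0 in the authors' deposited table and nearest to 0 by the mean of the arrays. That table was made from the same pools, so it is another processing of these data and no further replicate.

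The position of the members among all mouse probes differed between the arrays. On the second array the miR-34c probes held ranks 2 and 3 from the lowest of 376, miR-34b-5p held rank 7 and miR-34a rank 26. On the first array they held ranks 30, 33, 23 and 24 in the same order of probes. As deposited, 9 probes were at or below the highest member on both arrays: the 4 members and the probes of miR-141, miR-200c, miR-370, miR-455 and miR-688. The bounds are the members' own highest values, so the members lie within them by construction. With a trend on brightness removed there were 8 such probes: miR-141 and miR-200c dropped out and miR-677 came in. The turned arrays correlated with r = -0.08 over the 376 probes as deposited and with 0.44 once a trend on brightness was removed, a description over probes that share both arrays and pools.

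**Figure D2:**
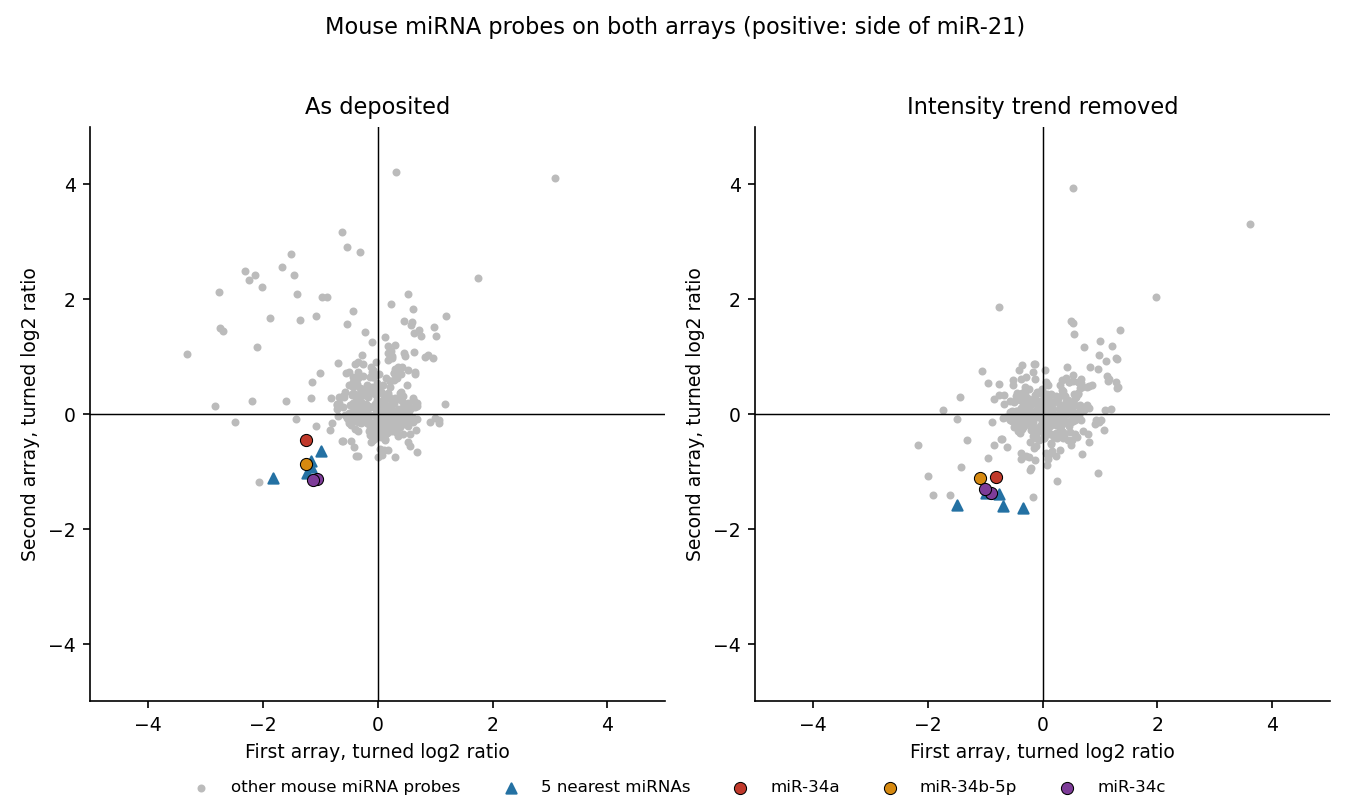
Turned log2 ratio on the first array (horizontal axis) and second array (vertical axis) for 376 mouse miRNA probes, as deposited (left) and with the intensity trend removed (right). Grey points are other mouse probes, coloured circles the 4 miR-34 probes, and blue triangles the 5 miRNAs nearest to their mean as deposited. The 4 miR-34 probes lie below 0 on both axes in both panels.

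The deposited ratios varied with brightness, and this touched miR-34a most. A smooth trend on average intensity was at -0.44 for the first array and at 0.64 for the second at the brightness of miR-34a. At that of the dimmer miR-34c probe 32772 it was -0.12 and 0.16. With the trend removed, miR-34a had -0.80 and -1.09 on the turned arrays, a mean of -0.95 ± 0.20 (technical SD, 2 arrays), so that both arrays then exceeded 1.5-fold. miR-34b-5p had -1.09 and -1.11, a mean of -1.10 ± 0.013 (technical SD, 2 arrays). The close arrays of miR-34c did not hold: probe 11074 had -0.89 and -1.37, and probe 32772 had -1.01 and -1.30, with technical SDs of 0.34 and 0.20. The median technical SD over the 376 was then 0.25, so probe 11074 repeated less closely than the median probe. All 4 passed the rule of size opposite miR-21 with the trend removed, against 21 of 376 mouse probes (5.59%), and the median of the family was -1.11 beside 0.027 over the 376. miR-34a minus miR-34c probe 32772 was then 0.20 and 0.21, whereas in the authors' deposited table miR-34a was the farther from 0 by 0.22.

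The share of all probes was also taken at the brightness of the members. Between average log2 intensities of 7.5 and 9.27, the range of the members, 9 of 89 mouse probes passed on the side opposite miR-21 (10.1%), and the members were 4 of these 9. With the trend removed it was 10 of 89 (11.2%). This band was set after the values were seen.

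**Figure D3:**
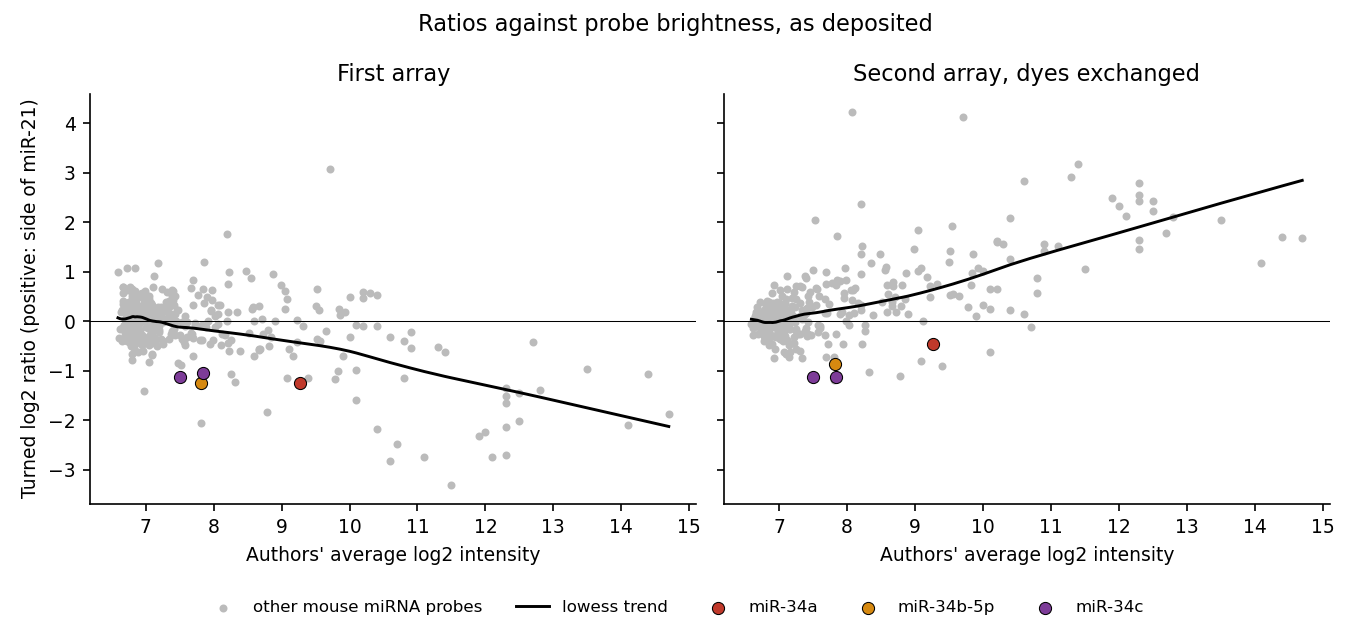
Turned log2 ratio as deposited (vertical) against the authors' average log2 intensity (horizontal) for the first array (left) and the second (right). Grey points are other mouse probes, coloured circles the miR-34 probes, and the line a lowess trend over all probes with a fold change. The line falls with brightness on the first array and climbs on the second, and each miR-34 probe lies below it on both.

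The miR-449 miRNAs, which share the miR-34 seed, did not pass the rule of size. miR-449a had 0.36 and -0.39 on the turned arrays, with a mean of -0.013 ± 0.53 (technical SD, 2 arrays), so its sign depended on the array. miR-449c had 0.11 and 0.048, with a mean of 0.080 ± 0.045 (technical SD, 2 arrays). The authors' deposited table gives -0.01 for miR-449a and -0.02 for miR-449c. Both were dim, with average log2 intensities of 7.07 and 6.83, below the mouse median of 7.17, and values near 0 in dim probes do not show that the levels were alike. No difference between the families was tested.

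The 5 mouse miRNAs whose pair of array values lay nearest to the mean of the members, by Euclidean distance over both turned arrays, were miR-141, miR-200c, miR-455, miR-200b and miR-370. miR-141 had -1.16 and -0.91, at a distance of 0.019. miR-200c had -1.15 and -0.81, at 0.087, and miR-455 had -1.23 and -1.03, at 0.145. miR-200b and miR-370 were further off, at 0.32 and 0.69, the second with a larger mean of -1.47 ± 0.51 (technical SD, 2 arrays). With the trend removed miR-455 was at 0.16 and miR-200c at 0.26, while miR-141, miR-370 and miR-200b lay at 0.45, 0.65 and 0.73. By these values miR-805 (-0.96 and -0.76) and miR-689 (-1.43 and -0.92) lay nearer than miR-370 and miR-200b. The nearest 5 therefore depended on the trend. Just inside 1.5-fold on this side were miR-874 with -0.75 and miR-678 with -0.64, and just outside miR-503 and miR-760, both with -0.55.

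Of the 5 nearest as deposited, miR-141, miR-200c and miR-200b maintain the epithelial state and are keratinocyte markers, though miR-200b was not among the nearest 5 with the trend removed. The keratinocyte list as a whole was measured by 10 probes, with average log2 intensities from 6.82 to 11.9 and 8 of 10 at or above the mouse median. Of these, 3 passed opposite miR-21, beside 3.46% of all 376 mouse probes. On its side passed 1, miR-200b* with 0.63, beside 9.04% of all 376. The median of the list was -0.19. miR-205, the brightest, had -2.31 and 2.49 on the turned arrays, and miR-203 had -0.50 and -0.16. The average log2 intensity of miR-203 was 7.16, just below the mouse median. Of 8 fibroblast marker probes only 2 reached the median brightness, and the brightest was miR-143 with 8.20. The median ratio of the fibroblast list was 0.18. From this list miR-143 alone passed, on the side of miR-21 with 2.06, beside 9.04% of all 376. Blood markers had intensities from 6.67 to 7.52 and a median ratio of 0.013, and the multiciliated markers are the miR-449 probes described above. Bright epithelial markers, such as miR-205 and miR-200b, were thus present in these cells, while miR-203 was not bright. miR-141 and miR-200c stand in both the keratinocyte and the p53-linked list, as miR-143 and miR-145 do in the fibroblast and the p53-linked list. The part of cell type in the values of the miR-34 family was not tested.

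The list of other p53-linked miRNAs mixes those that p53 induces or helps to mature, those it represses and those reported to target its transcript. No common side was therefore set for the list, and the share that passed was near that of all mouse probes. The activity of p53 was not tested. Of 27 probes with a fold change, 2 passed opposite miR-21 and 2 on its side, beside 12.5% of all 376 on either side, and the median was 0.071. With the trend removed, 2 passed opposite miR-21 and 4 on its side, where miR-22 and miR-125b-5p were added, beside 13.8% of all 376 on either side. Among miRNAs induced by p53 or matured with its help, miR-141 and miR-200c passed on the side of the miR-34 family, with -1.03 ± 0.17 and -0.98 ± 0.24 (technical SD, 2 arrays). miR-143, whose maturation p53 promotes, was placed beside miR-21 with 2.06 ± 0.43 (technical SD, 2 arrays), the highest of the list, and miR-141 was the lowest. miR-22, which p53 induces, had -0.31 and 2.82, a mean of 1.26 ± 2.22 (technical SD, 2 arrays), and passed with the trend removed, with 1.06, but not as deposited. The median of these 14 probes was 0.023. miR-145, which is made from the same cluster as miR-143, had 0.24, and the p53 targets miR-107, miR-192, miR-194 and miR-215 had 0.27, -0.02, -0.20 and -0.24. These are ratios between pools, and miR-192, miR-194 and miR-215 were dim, with average log2 intensities from 6.76 to 6.86.

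miRNAs reported in human cells to target the p53 transcript gave 4 probes. miR-30d had 0.87 and 1.03 on the turned arrays and passed on the side of miR-21. miR-125b-5p had -0.53 and 2.91, a mean of 1.19 that rested on the second array, and it passed with the trend removed but not as deposited. miR-25 had 0.27 and miR-504 -0.13. The miRNAs of the cluster that holds miR-17, which p53 is known to repress, had 9 probes with none past the rule, from miR-17* with -0.16 to miR-19a with 0.37. Of all 376 mouse probes 12.5% passed on either side, so counts in lists of 4 and 9 probes say little. In the authors' deposited table the median over the 27 probes is -0.0025.

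**Figure D4:**
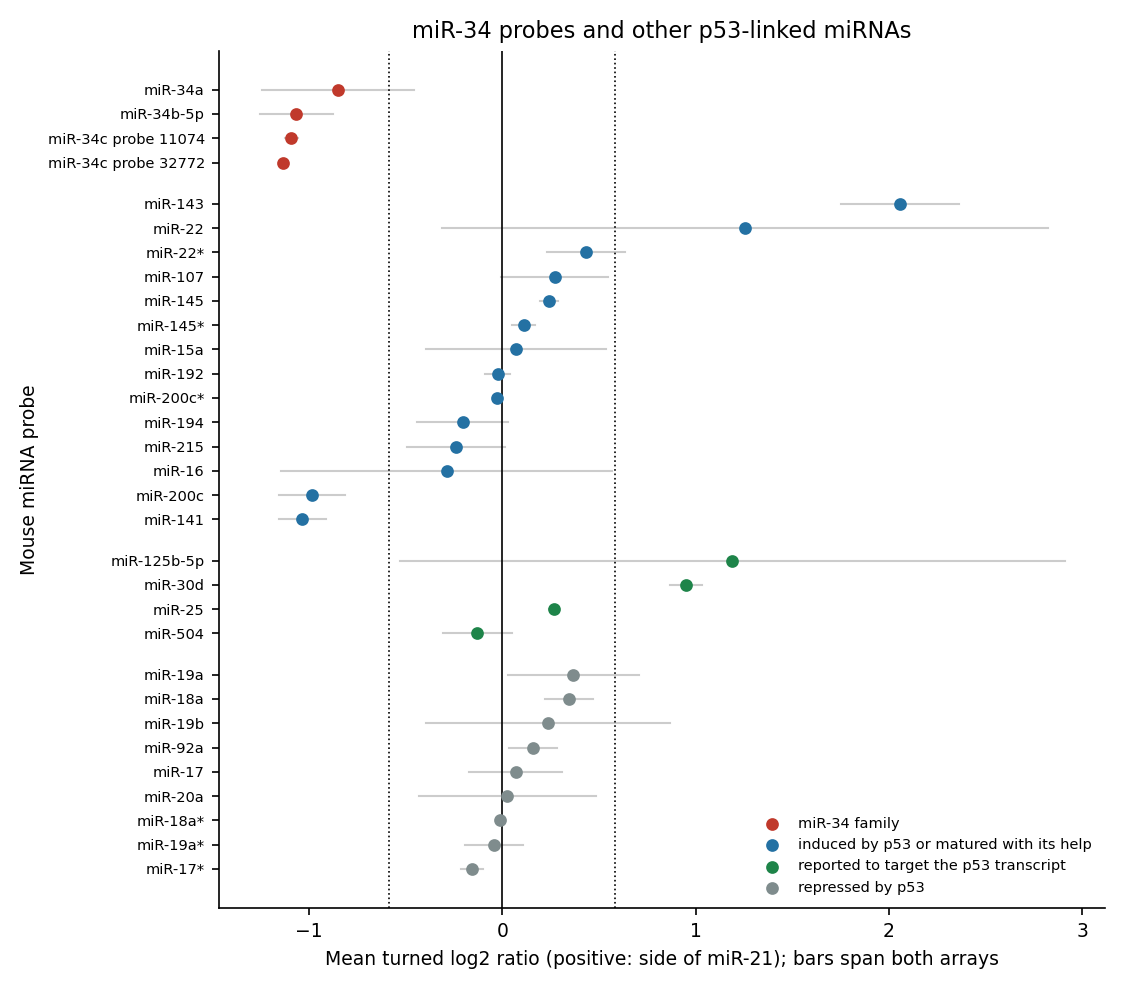
Mean turned log2 ratio of the 4 miR-34 probes (top) and of 27 probes for other p53-linked miRNAs by role, with grey bars from one array to the other and dotted lines at 1.5-fold (0.585). The miR-34 probes lie left of the lower dotted line, as do miR-200c and miR-141, while miR-143, with 2.06, lies farthest right.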

How the data were processed

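miRNA levels were measured on 2 dye-swapped arrays of locked nucleic acid probes that hold 1 pair of pools. The first table that the authors deposited gives, for 2244 features, a processed log2 ratio of the dyes on each array. In the second, the authors deposited for each probe, per the file headers, the log2 fold change, the log2 of the average intensity, an unadjusted p-value and the fold change with a sign. Its p-values were not used, since what served as replicates is not stated. How the arrays were scanned, corrected, normalized and centred, and which dye is the numerator, is not stated in the labels or files. The medians of the array columns were 0.039 and 0.040. Their base was taken as 2 because the authors' log2 fold change had a slope of 0.78 on the mean turned value, over 155 probes of average intensity 9 to 12; a natural base would give 1.44. Probes were joined by their array number, and the sign of the first array was turned.

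Used were 376 mouse probes with a fold change. Left out were 46 mouse probes without one, 2 mismatch probes and the probes not designed for mouse, whose miRNAs are unnamed here. The trend was a lowess fit with span 0.3 over 1677 probes, subtracted per array. Named are all member and miR-449 probes, miR-21, the 5 nearest miRNAs, the ends of the p53-linked list, the probes next to the threshold and, beyond this rule, further list members (miR-22 among them) and miRNAs with more than 1 probe. The p53-linked list had 29 mouse probes, of which miR-33 and miR-33* had no fold change. Members and lists were chosen with earlier results of these data known. Alternatives were other thresholds, centring, trend removal, the authors' fold changes, brightness filters, other sets of probes, averaging per miRNA, signs ignored and each array alone. Python 3.11.15, NumPy 2.4.6, pandas 2.3.3, statsmodels 0.14.6 and matplotlib 3.10.9 were used.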

Additional observations from a re-analysis of the deposited data

How the results depend on the processing

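The placement of the miR-34 probes opposite miR-21 held under each alternative run: all 24 values of the 4 probes (6 alternatives each) were negative, from -1.25 to -0.46. For some of these the sign was fixed in advance. The rule of size already asked the single arrays to share a sign. Averaging per miRNA left miR-34a and miR-34b-5p unchanged and gave both miR-34c probes the same value. All 4 passed the threshold except in 2 settings, which each left out miR-34a: at 2-fold and on the second array alone 3 of 4 passed. With the probes of miR-34c averaged 3 of 3 miRNAs passed. The median of the family was -1.15 with centred arrays and moved to -0.90 in the authors' deposited table. Among all mouse probes 47 passed, 34 on the side of miR-21 and 13 opposite. This was 75 at 1.3-fold, 23 at 2-fold, 120 over all 1677 probes, other species included, and 29 of 89 within the brightness range of the members, which was added after seeing the data. Leaving out an array gave 86 to 106, split as 33 and 53 on the first array alone and as 88 and 18 on the second alone. The split was 28 and 18 with centred arrays, 31 and 21 with the trend removed, and 14 and 23 in the authors' deposited table. The other p53-linked probes past the rule, of 27, were 2 at 2-fold and 6 to 8 on single arrays, and 6 with the trend removed, against 4. Beside these, all 376 mouse probes gave 23, 86 to 106, and 52 in the same settings, against 47, so the list moved much as all probes did. Apart from the settings' own construction, the cause of these moves was not tested. A single pair of pools leaves the spread between experiments unmeasured. No paired analysis was possible because the arrays form 1 group and no result comes from a test.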
